A study of Homo sapiens with 4 samples.

Results

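The 59 genes described here carry out DNA replication or supply its nucleotides. They were taken by name, from origin licensing to polymerases, the sliding clamp, deoxynucleotide enzymes and E2F, and all 59 had a probe set annotated with exactly 1 gene symbol, of 19775 genes so annotated. Each gene is represented by its brightest probe set over the arrays. All 59 passed the filter on dim genes, which kept 15082 genes whose highest value reached 4.77 on the log2 scale. The data are 4 Affymetrix U133 Plus 2 arrays of MDA-MB-231, a mesenchymal-like human breast carcinoma line without oestrogen receptor. The shRNA control carried the lentiviral vector pLVTH and the shRNA knockdown carried a hairpin against ZEB2, both as stably transduced cells. The siRNA control was transfected with siRNA against luciferase and the siRNA knockdown with an siRNA pool against ZEB2, each at 20 nM, with a wash after 24 hours and harvest 48 hours later. ZEB2 is a zinc-finger repressor of epithelial genes. All cells were grown in Leibovitz medium with serum, and nothing in the labels says whether a stable line was a clone or a pool. The shRNA samples were labelled from 2 µg of total RNA and the siRNA samples from 100 ng. Each group has 1 array, so differences within a pair have no replicate check and their precision is limited by the number of arrays. The shRNA arrays are called the stable pair and the siRNA arrays the transient pair, and a pair's difference is the log2 level of the knockdown minus that of its control.

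Before S phase, the origin recognition complex with CDC6 and CDT1 loads the MCM2-7 helicase onto DNA, a step called licensing that geminin (GMNN) blocks once it is done. CDC45 and the GINS complex then turn the MCM ring into the active helicase, polymerase alpha and primase lay down primers, and polymerases delta and epsilon extend them on the PCNA clamp. Most of these genes are switched on at the G1/S boundary by E2F transcription factors, so in cultured tumour cells their RNA follows the share of dividing cells. In bulk RNA a smaller share of cells in S phase cannot be told apart from less RNA of these genes per cell.

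ZEB2 itself read 6.12 on the shRNA control, 3.52 on the shRNA knockdown, 6.56 on the siRNA control and 3.51 on the siRNA knockdown, so it was lower on both knockdown arrays. Of the line's markers, VIM, CD44, AXL, MSN and KRT18 read above 12 on every array. SPARC read between 4.45 and 4.88, close to the filter level, and did not mark these cultures. Of the markers taken as low or absent in the line, PGR (3.08 to 3.50) stayed below the filter level. ESR1 read 6.08 to 6.54, GATA3 8.18 to 9.48 and ERBB2 7.83 to 7.97, all above the filter level on every array. CDH1, below the filter level at 3.54 and 4.26 with shRNA, stood at 7.37 and 8.35 with siRNA. Of 3 leukocyte, 3 endothelial and 5 fibroblast markers measured, 2, 2 and 5 reached the filter level on an array, and PTPRC and CDH5 did not. Their summed levels (log2 of the sum) were 6.43 to 6.61 on the shRNA arrays and 7.42 to 7.67 on the siRNA arrays for leukocytes, 6.54 to 7.17 and 7.34 to 7.49 for endothelium, and 8.44 to 8.85 and 9.60 to 9.66 for fibroblasts. The fibroblast gene LUM read 2.92 on the shRNA control, 6.80 on the shRNA knockdown, and 8.99 and 8.71 on the siRNA control and knockdown. The sums hide genes that went the other way. From the shRNA to the siRNA control LUM differed by 6.07 and PDGFRB by 0.80, but COL1A1, COL1A2 and DCN by -0.60, -0.49 and -0.14. The leukocyte gene CD14 differed by 2.08, but CD3E and PTPRC by -0.35 and -0.42. The endothelial genes PECAM1, CDH5 and VWF differed by 0.36, 0.37 and -0.32. The shRNA and siRNA arrays thus stood apart in genes beyond the members, and the part of such differences between cultures in the values below was not tested.

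Of the promoter words searched, the E2F binding word had the highest share relative to other promoters, and it is shown here because E2F is the factor known to switch them on together. RefSeq promoters of GRCh38.p14, from 250 bases before to 50 bases after the gene start, were found for 51 of the 59 genes and searched on both strands. At least 1 of the E2F words TTTCCCGC, TTTCGCGC, TTTGCCGC and TTTGGCGC stood in 21 of the 51 promoters (41.2%), against 4.87% of 11984 promoters of genes kept on the array and 3.33% of all 27305 promoters in the table. The CCAAT box, with the letters CCAAT, stood in 29 (56.9%), against 36.0% of the genes kept. The CHR word, TTTGAA or else TTCGAA, which marks many mitotic promoters, stood in 3 (5.88%), against 11.7%. The E-box that ZEB factors bind, CACCTG, stood in 6 (11.8%), against 19.2%, namely those of CDC7, RFC1, RFC4, TIPIN, TYMS and RRM1. Words of different motifs do not contain each other. The windows printed are 80 bases around the E2F words of the genes given with all 4 array levels, where a word lies wholly before the gene start. They run 5′ to 3′ on the gene's strand, with the E2F words in capitals.

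The window of POLA1 is chrX:24693745-24693824 on the plus strand, those of UHRF1 and TYMS are chr19:4909421-4909500 and chr18:657573-657652 on the plus strand, and that of RFC3 is chr13:33818058-33818137 on the plus strand. Those of E2F1 and GINS2 are chr20:33686386-33686465 and chr16:85688955-85689034 on the minus strand. The UHRF1 window lies inside the annotated span of UHRF1, which has an earlier start, and of its neighbour ARRDC5, and the TYMS window lies inside TYMSOS. The other 4 windows overlap no annotated gene.
POLA1: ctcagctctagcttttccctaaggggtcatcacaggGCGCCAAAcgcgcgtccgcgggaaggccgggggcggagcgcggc
UHRF1: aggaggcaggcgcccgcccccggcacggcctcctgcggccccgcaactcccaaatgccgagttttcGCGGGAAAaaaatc
E2F1: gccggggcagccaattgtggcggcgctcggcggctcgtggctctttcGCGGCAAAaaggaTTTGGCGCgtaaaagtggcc
GINS2: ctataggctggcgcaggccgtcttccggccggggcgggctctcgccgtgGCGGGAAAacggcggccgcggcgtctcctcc
RFC3: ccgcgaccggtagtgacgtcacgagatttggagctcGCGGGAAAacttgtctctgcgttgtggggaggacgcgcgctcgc
TYMS: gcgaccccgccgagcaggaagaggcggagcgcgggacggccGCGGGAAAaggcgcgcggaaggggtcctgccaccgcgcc

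In 5 of these windows the word is read on the opposite strand, and E2F1 has 1 word on each strand. The 21 genes with an E2F word had a median difference of -0.35 in the stable pair and -0.73 between the controls. The 30 genes without one had medians of -0.21 and -0.63. This gap between the 2 sets was not tested, and a word in a window is no measurement of binding.

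Most of the replication genes read lower after stable knockdown than in the vector control. Of the 59, 46 read below the control and 13 above it, where 53.2% of all genes kept read below. The median difference, shRNA knockdown minus shRNA control, was -0.32 on the log2 scale, against -0.02 over all genes kept. The differences were small for single genes. At 1.5-fold, 8 members were lower, against 7.11% of all genes, and 1 was higher, against 7.55%. No member reached 2-fold. The members ranged from -0.87 for TIPIN to 0.63 for GMNN. The count past 1.5-fold depended on the choice of probe set. When the probe sets of a gene were averaged, 4 members were 1.5-fold lower, so an excess over all genes at that fold is not secure. The number below the control stayed at 46.

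In the transient knockdown the members differed little from the luciferase control. Of the 59, 37 read above the control, where 46% of all genes did, and the median difference was 0.04, against -0.02 over all genes. The count depended on how the arrays were scaled: 22 members read below the siRNA control as deposited, 13 after quantile normalization, 15 after cyclic loess and 26 after median centring. None reached 1.5-fold in either direction, where 2.2% of all genes did. The members ranged from -0.42 for POLD3 to 0.30 for PCNA.

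**Figure D1:**
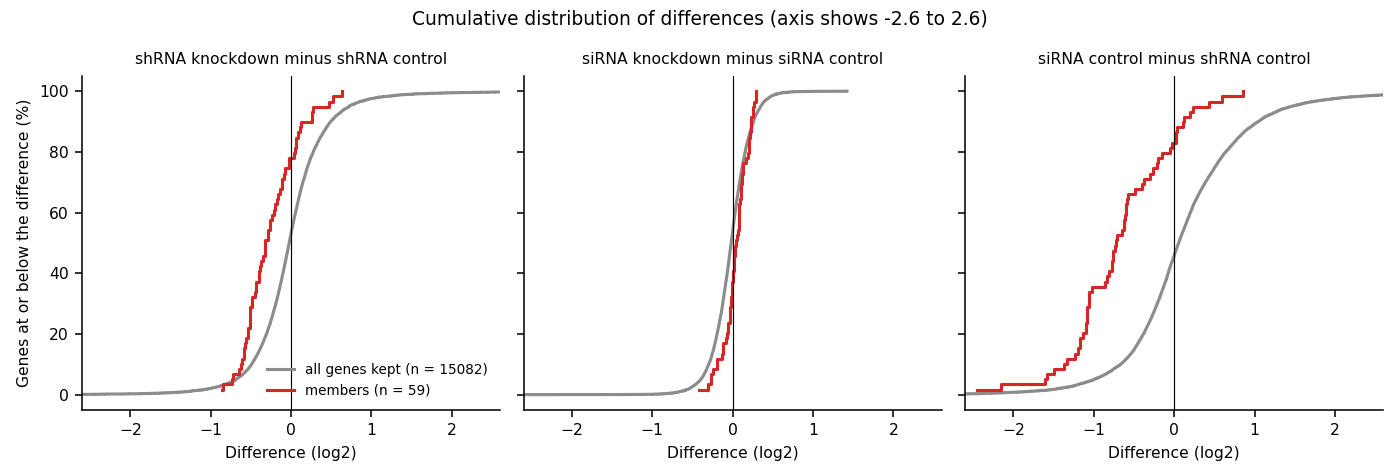
Cumulative share of genes (percent, vertical axis) at or below each difference (log2, horizontal axis) for the 59 members (red) and all 15082 genes kept (grey), in the stable pair, the transient pair and between the controls. The red line lies left of the grey one over most of its range in the stable pair and further left between the controls, with medians of -0.32 and -0.73, and lies close to it in the transient pair, with a median of 0.04.

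The controls, which both keep ZEB2, differed more in these genes than either knockdown differed from its control. All genes kept had the same order. Their differences had a standard deviation of 0.82 between the controls, 0.50 in the stable pair and 0.23 in the transient pair. With the siRNA control set against the shRNA control, 49 of 59 members were lower, where 45.8% of all genes were. The median difference was -0.73, against 0.06 over all genes kept and 0.12 over the 9369 genes at least as bright as the dimmest member. At 2-fold, 21 members were lower, against 4.99% of all genes, and 0 were higher, against 10.8%. This comparison shares an array with each knockdown pair. The shRNA control was the highest of the 4 arrays for 40 of the 59 genes, where it was the highest for 28.9% of all genes. For 37 members the shRNA knockdown lay below the shRNA control and above both siRNA arrays, against 17.1% of all genes. Set against the siRNA control instead, a comparison added after the values were seen, the shRNA knockdown was higher, with a median of 0.51 against -0.09 over all genes and 49 of 59 members above 0, where 42.9% of all genes were. The shRNA knockdown thus read lower than the vector control and higher than the siRNA control. The second comparison also differs in method, so it is no check of the difference in the stable pair.

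**Figure D2:**
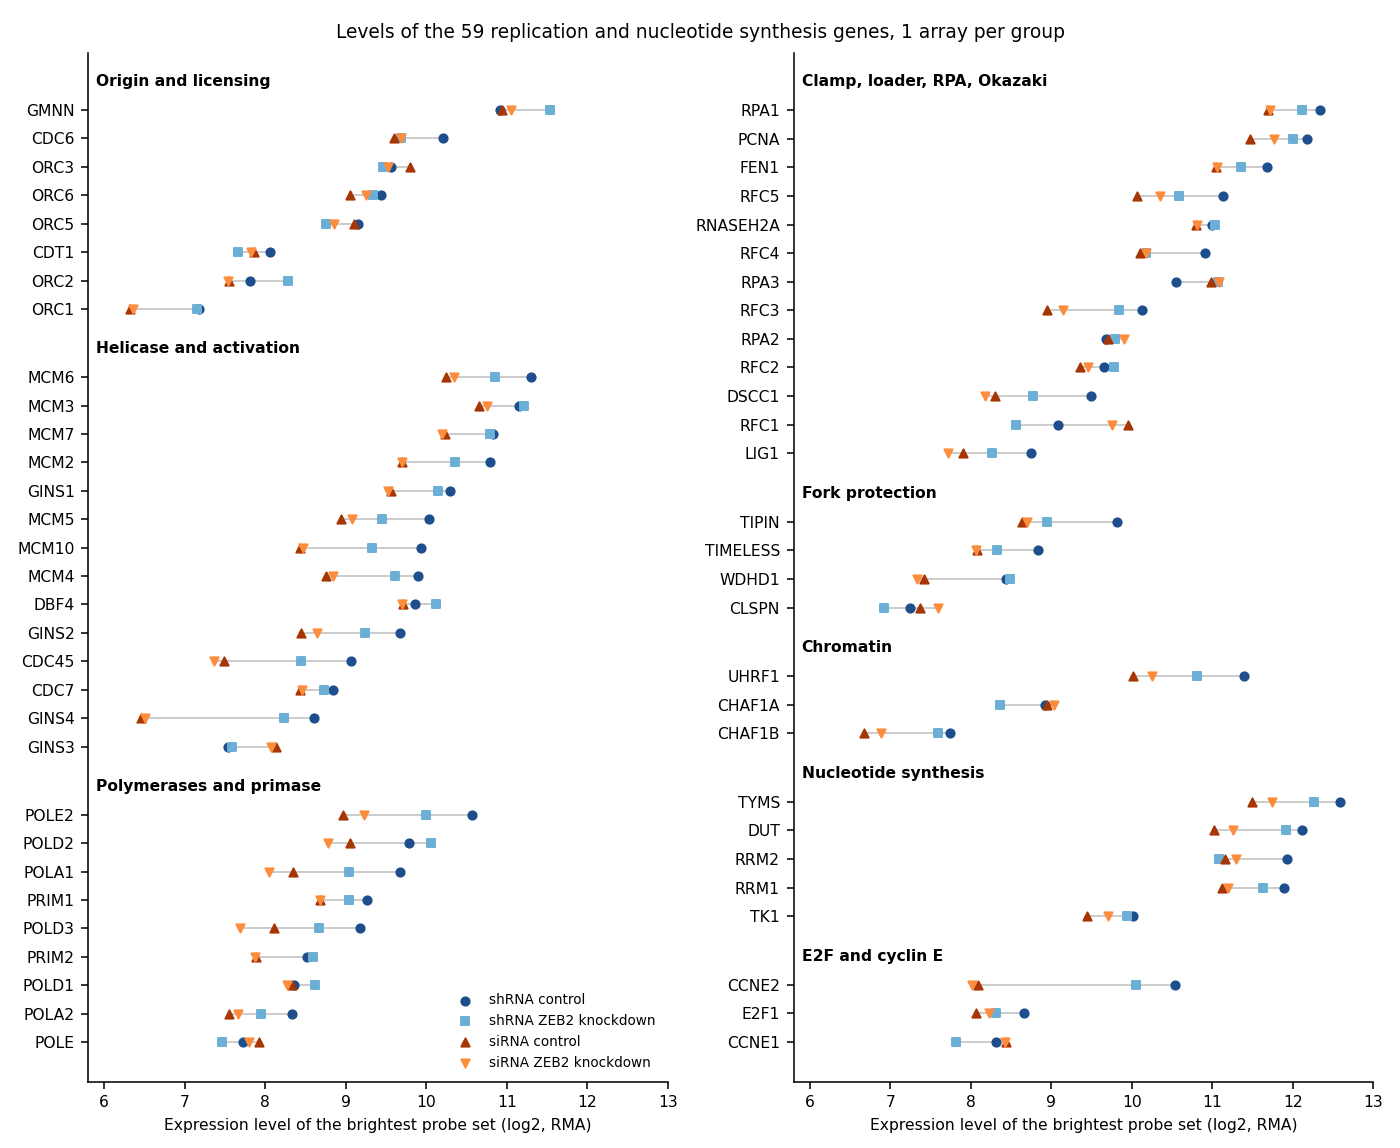
Level of each of the 59 genes (log2 RMA value of its brightest probe set, horizontal axis) on the 4 arrays, 1 point per array, grouped by role. For 40 of the genes the dark blue point, the shRNA control, lies farthest right, and for 46 both blue points lie right of the brown and orange points of the siRNA arrays.

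By their median, licensing genes differed least in the stable pair and between the controls. CDC6, the loader that recruits the helicase to the origin complex, read 10.21 on the shRNA control, 9.69 on the shRNA knockdown, 9.60 on the siRNA control and 9.68 on the siRNA knockdown, so the vector control stood alone above the other 3 arrays. GMNN, the inhibitor of CDT1, went the other way at 10.91 and 11.54 in the stable pair and 10.94 and 11.05 in the transient pair. It was the only member 1.5-fold higher in either pair, 1.54-fold in the stable knockdown. Its partner CDT1 differed by -0.40 and -0.04. The origin complex gene ORC5 was lower in both pairs, with differences of -0.40 and -0.24, while ORC2 differed by 0.47 and -0.01 and ORC1, ORC3 and ORC6 lay between -0.11 and -0.02 in the stable pair. The second ORC2 probe set read -0.22 in the stable pair, so the sign for ORC2 depends on the probe set. The second ORC5 probe set read -0.18 and 0.08, so only the brightest one of ORC5 was lower in both pairs. Over the 8 genes the medians were -0.10 in the stable pair, 0.01 in the transient pair and -0.23 between the controls.

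Helicase genes had a median difference of -0.33 in the stable pair, with 11 of 14 below 0, and of -1.07 between the controls, with 13 of 14 below 0. CDC45, the factor that completes the active helicase, read 9.06 and 8.44 in the stable pair and 7.48 and 7.36 in the transient pair, 1.54-fold lower in the stable knockdown. MCM10, which helps the helicase to open DNA, read 9.93 and 9.32 and then 8.44 and 8.47. Both genes were highest on the shRNA control and lower on both siRNA arrays than on either shRNA array. Of the MCM ring, MCM5 read 10.04 and 9.45 in the stable pair and 8.94 and 9.07 in the transient pair, 1.51-fold lower in the stable knockdown. MCM2 read 10.79, 10.36, 9.70 and 9.70 on the shRNA control, shRNA knockdown, siRNA control and siRNA knockdown. MCM4 read 9.90, 9.61, 8.76 and 8.84 in the same order. The other ring genes MCM3, MCM6 and MCM7 differed by 0.06, -0.45 and -0.03 in the stable pair, but the second MCM6 probe set differed by 0.28 and the 5 of MCM4 ran from -0.29 to 0.07, so the order of the ring genes depends on the probe sets. In the transient pair the ring genes, by their brightest probe sets, lay between -0.04 and 0.13.

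Subunits of the GINS complex split by gene. GINS4 read 8.60 and 8.23 in the stable pair and 6.45 and 6.51 in the transient pair, 4.45-fold lower in the siRNA than in the shRNA control. GINS2 read 9.68 and 9.24 and then 8.44 and 8.64. GINS3 went against the group between the controls, at 0.59, with 0.05 and -0.06 in the pairs, and GINS1 differed by -0.14 and -0.03. DBF4, the activator of the kinase CDC7 that fires origins, had the largest positive difference of the helicase group in the stable pair, at 9.86 and 10.12, and read 9.71 and 9.70 in the transient pair. CDC7 itself differed by -0.11 and 0.02.

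Among the polymerases the same split ran through single enzymes. POLA1, the catalytic subunit of polymerase alpha, read 9.68 and 9.03 in the stable pair and 8.35 and 8.05 in the transient pair, 1.56-fold and 1.23-fold lower. POLD3, a subunit of polymerase delta, was also lower in both pairs, at 9.18 and 8.67 and then 8.11 and 7.69. These were the 2 members with the most negative mean over the pairs. POLD2, a regulatory subunit of polymerase delta, differed in opposite senses, at 9.79 and 10.06 and then 9.05 and 8.78. POLE2, of polymerase epsilon, read 10.57 and 9.99 and then 8.96 and 9.22, 1.49-fold lower and 1.19-fold higher. The second POLD3 probe set gave -0.08 and 0.24, so only its brightest one was lower in both. POLA2, PRIM1, PRIM2, POLD1 and POLE lay between -0.39 and 0.26 in the stable pair and between -0.13 and 0.11 in the transient pair.

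Most clamp and loader genes were lower in the stable pair. RFC4, a loader subunit, read 10.91 on the shRNA control and 10.18, 10.10 and 10.18 on the other 3 arrays, 1.66-fold lower in the stable knockdown. RFC5 read 11.13 and 10.59 and then 10.07 and 10.35, but its other 2 probe sets both differed by 0.04 in the stable pair. RFC3 read 10.12 and 9.84 and then 8.95 and 9.15. RFC1, the large subunit, was lower in both pairs, with differences of -0.53 and -0.20, yet was 1.81-fold higher in the siRNA than in the shRNA control, the largest such excess among the members. DSCC1, part of an alternative loader that serves sister chromatid cohesion, read 9.50 and 8.77 and then 8.30 and 8.18. It was 1.65-fold lower in the stable knockdown, while its second probe set differed by 0.13. PCNA, the clamp itself, differed by -0.18 and 0.30, and the loader subunit RFC2 by 0.12 and 0.10.

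Single-strand binding and strand-joining genes were less uniform. RPA3, the small subunit of the single-strand binding protein, was higher in both pairs, at 10.55 and 11.07 and then 10.98 and 11.09, with the shRNA control alone below the rest. RPA1 differed by -0.22 and 0.03 and RPA2 by 0.11 and 0.20. The flap nuclease gene FEN1, which trims Okazaki fragments, differed by -0.32 and 0.01, the ligase gene LIG1 by -0.48 and -0.19, and RNASEH2A, which removes RNA from DNA, by 0.03 and 0.02. LIG1 was one of 15 members lower in both pairs, a share near the 27.8% of all genes. A further 31 were lower in the stable pair and higher in the transient pair, against 25.2% of all genes. The opposite signs were seen in 7, against 25.9%, and 6 were higher in both, against 20.6%. Over the 59 genes the differences of the pairs, which share no array, had Pearson r = 0.02 and Spearman rho = -0.0021, as a description across genes, which are not independent.

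The most negative difference in the stable pair was in a fork protection gene. TIPIN, which with TIMELESS steadies the moving fork, read 9.81 on the shRNA control and 8.95, 8.64 and 8.70 on the shRNA knockdown, siRNA control and siRNA knockdown. It was 1.82-fold lower in the stable knockdown, the largest fold in either pair among the members. Its partner TIMELESS differed by -0.51 and -0.01 and the checkpoint mediator CLSPN by -0.32 and 0.23. Other CLSPN probe sets above the filter level differed by -0.17 and -0.02 in the transient pair, so its sign there depends on the probe set. WDHD1, which ties polymerase alpha to the helicase, differed mainly by method, with 8.43 and 8.49 on the shRNA arrays and 7.42 and 7.33 on the siRNA arrays. Its other probe sets differed by -0.23 and -0.28 in the transient pair. UHRF1, which carries DNA methylation through replication, read 11.39 and 10.81 and then 10.02 and 10.25. CHAF1B, a subunit of the histone chaperone CAF-1, read 7.75 and 7.59 and then 6.67 and 6.88, and CHAF1A differed by -0.56 and 0.08. By their brightest probe sets, all 3 chromatin genes were lower in the stable pair and higher in the transient pair. A dimmer CHAF1A probe set read -0.08 in the transient pair.

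Nucleotide synthesis genes also had opposite signs in the pairs by their brightest probe sets, all 5 lower in the stable pair and all 5 higher in the transient pair. Other probe sets of RRM1, RRM2 and TYMS read lower in the transient pair, at -0.13, -0.12 and -0.08, and the second of TK1 read 0.003 in the stable pair. RRM2, the S-phase subunit of ribonucleotide reductase, read 11.92 on the shRNA control and 11.08, 11.16 and 11.30 on the other 3 arrays. It was 1.79-fold lower in the stable knockdown, but its second probe set differed by -0.03. TYMS, the thymidylate synthase, read 12.59 and 12.26 and then 11.50 and 11.75. DUT, which removes dUTP, read 12.11 and 11.92 and then 11.03 and 11.26. TK1, the thymidine kinase, read 10.02 and 9.95 and then 9.44 and 9.71, and RRM1 differed by -0.27 and 0.08. The medians were -0.27 in the stable pair and 0.23 in the transient pair, so the siRNA differences were small even where their sign was shared.

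The G1/S drivers were lower in the stable knockdown without reaching 1.5-fold. E2F1 read 8.66 and 8.31 and then 8.06 and 8.23. CCNE1, one cyclin E gene, read 8.32 and 7.81 in the stable pair and 8.43 and 8.42 in the transient pair. CCNE2, the other, read 10.54 and 10.06 and then 8.09 and 8.01. It was 5.49-fold lower in the siRNA than in the shRNA control, the largest gap between controls among the members, whereas CCNE1 differed there by 0.11. The cyclin E genes thus had like differences in the stable pair, -0.51 and -0.48, and unlike ones between the controls.

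**Figure D3:**
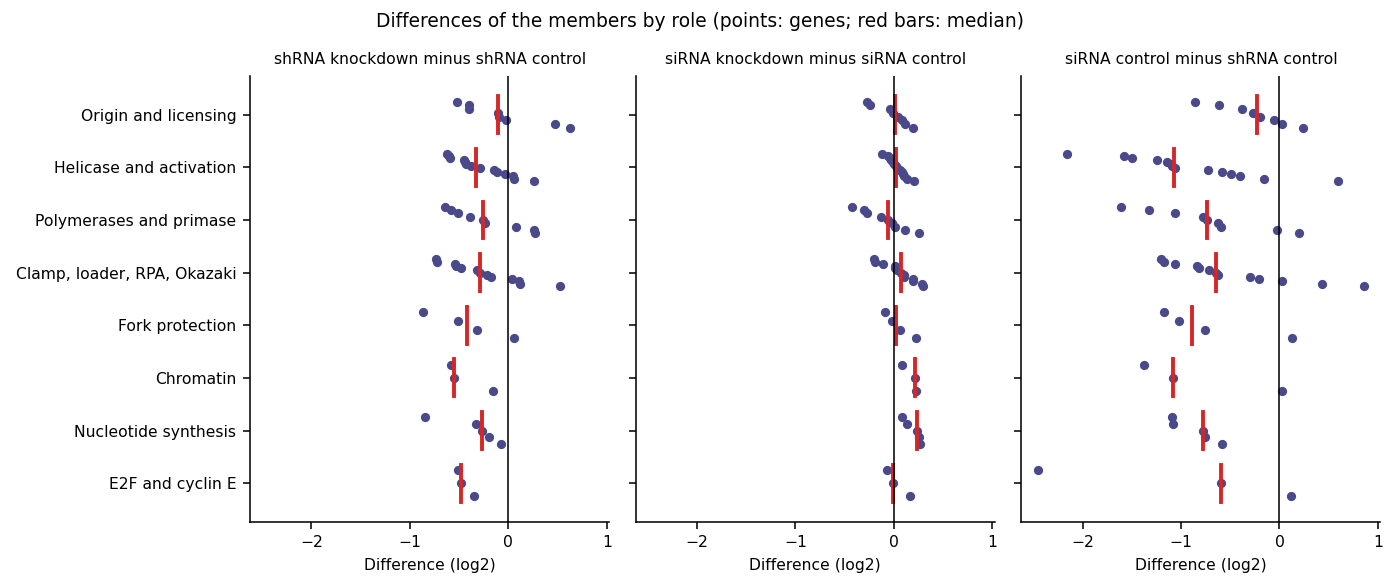
Differences (log2, horizontal axis) of the members by role in the stable pair, the transient pair and between the controls, with 1 point per gene and a red bar at each role's median. In the stable pair the role medians run from -0.56 for chromatin genes to -0.10 for licensing genes, and in the transient pair from -0.06 for polymerases to 0.23 for nucleotide synthesis.

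Because the siRNA arrays read lower in most members, the knockdown arrays were also set against each other, a comparison added after the values were seen. It shares no array with the comparison of the controls. The siRNA knockdown was below the shRNA knockdown for 47 of 59 members, where 42.3% of all genes were, with a median of -0.40 against 0.09 over all genes. At 2-fold, 5 members were lower, against 3.91% of all genes, and 1, RFC1, was higher, against 7.83%. For 46 members both shRNA arrays read above both siRNA arrays, against 27.5% of all genes. Across the 59 genes the differences had Pearson r = 0.82 and Spearman rho = 0.74, and across all genes r = 0.75, as a description.

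The method effect was then tested with limma on all 4 arrays, with knockdown as the other term, which leaves 1 residual degree of freedom. This test was added after the values were seen. Its error term starts from the gap between the method differences of the control and the knockdown arrays. This gap is combined with a value that limma pools over all genes, so an SE is not the gene's own gap alone. The error term holds no spread between repeated cultures. After Benjamini-Hochberg adjustment over all genes, 3 members were lower in the siRNA arrays, against 2.22% of all genes, and 0 were higher, against 4.67%. CCNE2 fell by 2.25 ± 0.20 (SE) with an adjusted p of 0.0349 in limma, GINS4 fell by 1.93 ± 0.19 with 0.0395, and WDHD1 fell by 1.09 ± 0.17 with 0.0496. Each was lower on both siRNA arrays than on both shRNA arrays. At an unadjusted p under 0.05 in limma, 29 members were lower, against 12% of all genes, and 2 were higher, against 21.3%. CCNE2 was called under all 11 settings tried, GINS4 under 10 and WDHD1 under 9. The number of members called lower ran from 1 without the filter to 18 with the mean of all probe sets. The number called higher was 1, and not 0, with a filter at the 60th percentile, median centring, quantile normalization or cyclic loess.

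The methods differ in delivery, culture and amount of RNA labelled, which cannot be told apart here. The labels give hours for the siRNA samples only. Control probe sets along 2 transcripts gave a measure of how far labelled RNA reached toward the 5′ end. For ACTB the 5′ minus 3′ difference was 0.04 and 0.03 on the shRNA control and knockdown and -0.50 and -0.52 on the siRNA control and knockdown. For GAPDH it was 0.07 and 0.07 on the shRNA arrays and -0.11 and -0.19 on the siRNA arrays. The siRNA arrays thus held less 5′ signal in both transcripts. Probe sets of 1 member differed widely between the controls too, from -3.78 to -0.12 for MCM4, from -4.01 to -2.46 for CCNE2, from -2.15 to -0.79 for GINS4 and from -1.42 to 0.08 for CHAF1A. The part of 5′ signal in the members' differences between methods was not tested. Within each pair the ACTB and GAPDH values differed by less than 0.1.

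**Figure D4:**
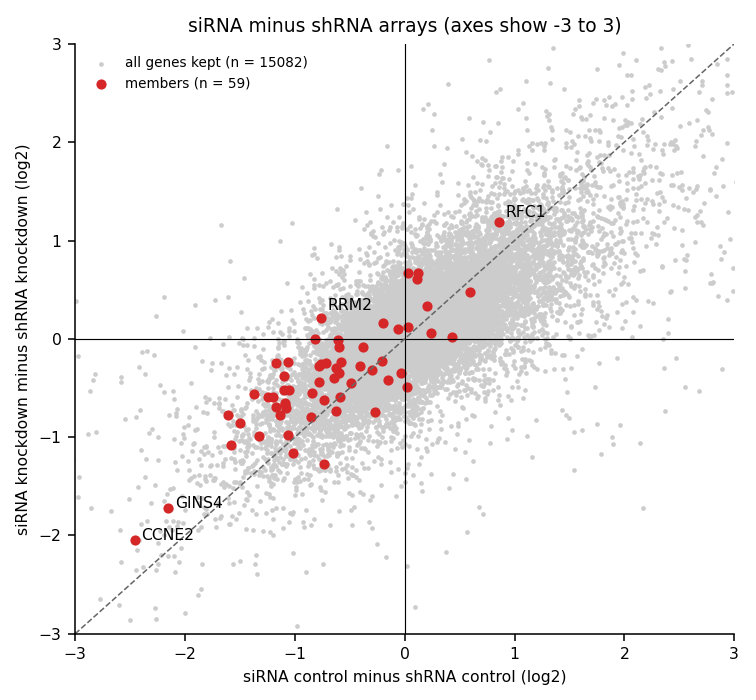
Difference between methods in the control arrays (log2, horizontal axis) and in the knockdown arrays (log2, vertical axis) for all 15082 genes kept (grey) and the 59 members (red), with the dashed line marking equal differences and both axes shown from -3 to 3. Of the members, 46 lie below 0 on both axes, with CCNE2 and GINS4 lowest on the horizontal axis and RFC1 in the upper right.

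A common effect of knockdown was tested with limma over both methods, with the method as the other term. Its error term combines each gene's gap between the methods with a value that limma pools over all genes. An SE is therefore not the gene's own gap alone, and it holds no spread between repeated cultures. After Benjamini-Hochberg adjustment 0 members and 0 genes in all passed in limma, and 0 members had an unadjusted p under 0.05, where 2.55% of all genes did. The smallest among the members was POLD3, with a mean difference of -0.47 ± 0.17 (SE), an unadjusted p of 0.05 and an adjusted p of 0.971 in limma. POLA1 followed with -0.47 ± 0.19 and an unadjusted p of 0.0674 in limma. No effect shared by the methods was thus detected, which does not show that there was none.

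Other genes of S phase were taken from lists by name. Of all genes kept, 53.2% were lower in the stable pair and 53.7% in the transient pair. Of 28 further replication fork genes, 20 were lower in the stable pair, with a median of -0.14, and the siRNA median was 0.01. In that list POLD4, the small subunit of polymerase delta, was lower in both pairs, with differences of -0.70 and -0.57, and the checkpoint kinase gene ATR differed by -0.65 and -0.13. Of 25 further nucleotide synthesis genes, 16 were lower in the stable pair and 19 in the transient pair, with medians of -0.10 and -0.15. The siRNA median thus had the opposite sign to that of the 5 members for nucleotide synthesis. CTPS2, which makes CTP, differed by 1.26 and -0.48, the mitochondrial thymidine kinase gene TK2 by -0.74 and -0.36, and the deoxycytidine kinase gene DCK by -0.52 and 0.34. This list and that of G1/S regulators each had 1 gene with no probe set of 1 symbol, not analysed here.

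The E2F and pocket protein list had 10 of 16 genes (62.5%) lower in the stable pair, where 53.2% of all genes were, with a median of -0.22. RBL1, the pocket protein p107 that restrains E2F, differed by -1.08 and 0.33, LIN9, of the complex that switches on late cell cycle genes, by -1.32 and 0.05, and the repressor gene E2F8 by -0.51 and 0.54. In the other direction LIN52 differed by 0.74 and -0.05 and E2F6 by 0.62 and -0.10. At 1.5-fold in the stable pair, 2 genes of the list were lower and 2 higher, against 7.11% and 7.55% of all genes. With the mean of all probe sets the list's shRNA median was 0.03, so its direction depended on the probe sets. G1/S regulators had 8 of 14 (57.1%) lower, a share near that of all genes, with a median of -0.12. SLBP, which binds histone RNA, differed by -0.80 and 0.01, and CDK6 by 0.81 and -0.03.

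Mitotic genes peak later in the cell cycle than replication genes. In the stable pair 11 of 20 were lower, near the 53.2% of all genes, with a median of -0.06. In the transient pair 10 of 20 were lower, near the 53.7% of all genes, with a median of 0.01. Between the controls 19 of 20 were lower, where 45.8% of all genes were, with a median of -0.82, close to the -0.73 of the replication genes. The proliferation marker MKI67 differed by -0.59 in the stable pair and the spindle motor gene KIF20A by 0.73. The gap between the mitotic and the replication genes in the stable pair was not tested.

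**Figure D5:**
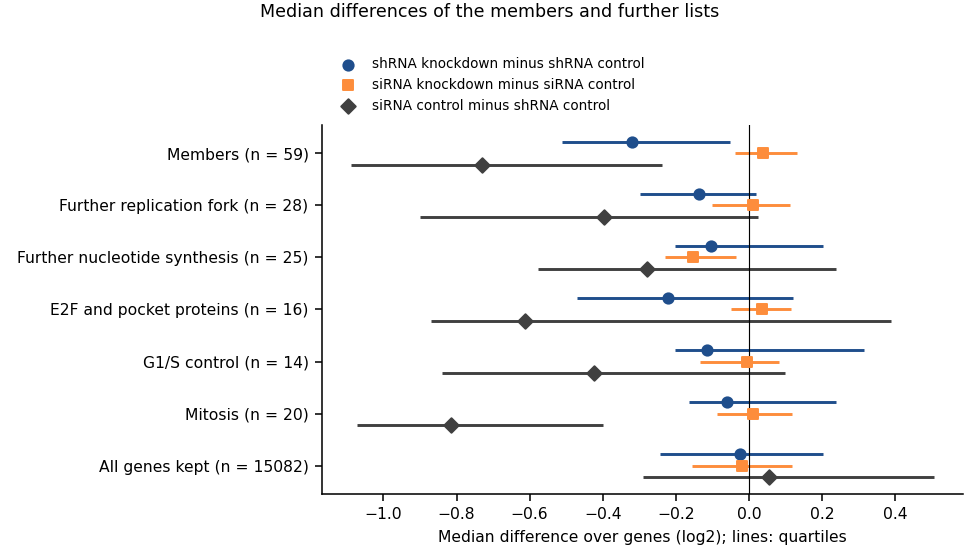
Median difference (log2, horizontal axis; symbols) and quartiles (lines) over the genes of each list in the stable pair, the transient pair and between the controls. The shRNA median runs from -0.32 for the members to -0.06 for mitotic genes and -0.02 for all genes kept, and between the controls all 6 lists lie below 0.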

How the data were processed

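RNA of 4 MDA-MB-231 cultures was measured on Affymetrix U133 Plus 2 arrays. The deposited values are log2 expression for each probe set. The submitters' processing notes name RMA and affy, the package the authors ran, with versions not given in the sources used here. Median levels of the arrays lay between 5.34 and 5.37. RMA summarizes probes over all arrays together, so levels of 1 gene can be compared between arrays and levels of different genes cannot. Groups came from the sample titles and source names. The brightest probe set (highest mean over the arrays) stood for a gene, and genes reaching 4.77, the 40th percentile of all values, on any array were kept. Differences of log2 values carry no test. The only fits were in limma 3.58.1 (R 4.3.3) and were checked on simulated data. They used errors moderated across genes, an intensity trend and Benjamini-Hochberg adjustment over all 15082 genes. The members and lists were chosen with earlier results of these data known. Genes given with 4 levels were the lowest and highest of each role in the stable pair, then those past 1.5-fold in a pair or 2-fold between controls, up to 30, which left out MCM6. Alternatives covered probe set choice, filters, scaling, fold thresholds and the fit. Array control transcripts, the limma method test and the comparisons of the shRNA knockdown with the siRNA control and of the knockdown arrays were added after the values were seen. A further array control transcript is not reported here. Promoter words came from RefSeq, GRCh38.p14.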

Additional observations from a re-analysis of the deposited data

Results flagged for a closer look

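Opposite signs in the shRNA and transient pairs set some members apart, and with 1 array per group the difference between the pairs was not tested. Over the 59 genes, the transient pair difference minus the stable pair difference had a median of 0.34 on the log2 scale. Of the members past 1.5-fold in a pair, CDC45, POLA1 and DSCC1 were lower in both pairs and GMNN was higher in both. The others were picked for their opposite signs, which are therefore no result. For these the difference between the pairs was 0.97 for RRM2, 0.92 for TIPIN, 0.81 for RFC4, 0.72 for MCM5 and 0.64 for MCM10. All 5 were lower in the shRNA knockdown than in its control and slightly higher in the siRNA knockdown than in its own. The second probe set of RRM2 differed by -0.03 and -0.12 in the pairs and did not have opposite signs.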

How the results depend on the processing

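No paired analysis by replicate number was possible because each group has 1 array and the labels carry no replicate numbers, so no replicate can be left out either. The limma fits pair the arrays by method. Over the probe set, filter and scaling alternatives the members' median stayed between -0.34 and -0.24 in the stable pair, 0.02 and 0.08 in the transient pair, and -0.77 and -0.71 between the controls. With the siRNA control in place of the shRNA control, added after the values were seen, the shRNA median was 0.51. That comparison also differs in method, so it does not check the stable pair. With the mean of all probe sets, 4 members were 1.5-fold lower in the stable pair, and at 2-fold and 3-fold 0 were lower and 0 higher. Of the 9 members past 1.5-fold there, 5 were also past it with that mean, and 16 of the 21 members 2-fold lower between the controls. Members below 0 in the transient pair numbered 13 after quantile normalization, against 22. Between the controls 21 members were lower at 2-fold and 3 at 3-fold, against 38 at 1.5-fold. Higher there was 1 with the mean of probe sets, quantile normalization or cyclic loess, and 0 at 2-fold and 3-fold, against 2. The E2F and pocket list's median in the stable pair was 0.033 with the mean of probe sets, and its median between controls -0.50 without _x_at probe sets or with the filter at the 60th percentile. The mitosis median between controls was -1.03 with the mean of probe sets. Causes of these shifts were not tested. The limma method test called 2343 genes with the mean of probe sets, 248 without the filter, 2078 at the 60th percentile, 2105 after median centring, 2490 after quantile normalization and 2117 after cyclic loess, against 1040. Members lower in it numbered 18, 1, 13, 11, 15 and 12 in that order, 6 without _x_at probe sets, 5 with the filter on the mean and 6 without the trend, against 3. Members higher in it numbered 1 at the 60th percentile and after median centring, quantile normalization or cyclic loess, against 0. The limma knockdown test called 0 genes under all 11 settings beside the stated one, with 40 to 516 genes at an unadjusted p under 0.05. Of the values of single members under these alternatives, 685 moved by at most 0.1 and 35 by more. The filters could not change a member's own value, so their values stayed by construction. Of the 35, 34 came with the mean of all probe sets, under which 56 moved by at most 0.1. In all, 10 values changed sign, none of them past 1.5-fold and each at most 0.12 in size under the stated choices. Differences within a pair rest on single arrays and carry no error.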
